A study of Mus musculus with 8 samples.

Results

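The 10 genes *Lcn2*, *Chil1*, *Cp*, *Saa1*, *Saa2*, *Saa3*, *Hp*, *Ptx3*, *Lbp* and *Steap4* were taken by symbol from the 18533 genes listed in every sample. They are acute-phase and innate genes, most with secreted products, that respond to IL-1 and IL-6 family signals, and they were chosen by measured values, since *Lcn2*, *Cp* and *Chil1* had higher counts in the samples without *Hint1*. The genotype difference therefore served to choose the genes, and for these 10 genes it is given as a description, without a test. RNA-Seq was run on mouse aortic smooth muscle cells (MASMCs), with 4 WT samples and 4 *Hint1*-/- samples. The cells were isolated with collagenase from aortas of male mice aged 4 to 6 weeks, once adventitia and endothelium had been stripped off. Both genotypes received PDGF-BB, a smooth muscle mitogen, at 20 ng/mL for 24 hours, so no value shows these genes without PDGF-BB. The *Hint1*-/- mice carried the knockout in all cells, not only in smooth muscle. The labels and methods do not say whether the 4 samples of a genotype came from separate mice or cultures, so every SD and adjusted p here measures the spread between samples, which may be technical.

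The acute-phase response is the shift in plasma proteins that follows infection or tissue injury. IL-1, acting mainly through NF-kB, and IL-6 family cytokines, acting through gp130 and STAT3, induce it with the C/EBP transcription factors, chiefly in the liver, while fibroblasts, macrophages and vascular cells produce some of the same proteins locally. The products take iron, copper and heme out of reach (lipocalin 2, ceruloplasmin, haptoglobin), bind lipids and microbial surfaces (serum amyloid A, pentraxin 3, LPS-binding protein) or, as with the chitinase-like protein Chil1, have no known enzyme activity.

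The genes lie on 6 chromosomes, and only the serum amyloid A genes form a cluster. In GRCm38, with GENCODE gene models, *Saa3*, *Saa1* and *Saa2* stood within 42.3 kb of chromosome 7, from 46711998 to 46754313, and *Saa1* and *Saa2* were transcribed away from each other with a gap of 8809 bases. *Lcn2* (from 32384633 to 32388252) and *Lbp* (from 158306493 to 158332852) were on chromosome 2, and *Cp* (from 19957054 to 20009145) and *Ptx3* (from 66219910 to 66225805) were on chromosome 3. *Chil1* was on chromosome 1 from 134182176 to 134190181. *Steap4* was on chromosome 5 from 7960457 to 7982213. *Hp* was on chromosome 8 from 109575128 to 109579172. Promoter windows from RefSeq (GRCm38.p6), with 250 bases before and 50 after the transcription start, were matched for 8 of the 10 genes. Of these, 5 are printed 5′ to 3′ on the strand of the gene, because they hold the most abundant member, its near-silent neighbor and the 3 genes with the largest fold change. Capitals mark every match, on either strand, to the C/EBP letters TTNNGNAA, the STAT letters TTCNNNGAA or the NF-kB consensus.
Saa3, chr7:46715627-46715926, - strand: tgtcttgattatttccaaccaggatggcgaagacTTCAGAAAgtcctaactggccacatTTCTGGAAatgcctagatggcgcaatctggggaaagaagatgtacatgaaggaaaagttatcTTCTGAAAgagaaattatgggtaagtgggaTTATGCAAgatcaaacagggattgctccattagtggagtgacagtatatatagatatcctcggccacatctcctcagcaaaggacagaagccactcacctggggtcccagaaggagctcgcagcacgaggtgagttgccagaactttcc
Saa1, chr7:46742931-46743230, - strand: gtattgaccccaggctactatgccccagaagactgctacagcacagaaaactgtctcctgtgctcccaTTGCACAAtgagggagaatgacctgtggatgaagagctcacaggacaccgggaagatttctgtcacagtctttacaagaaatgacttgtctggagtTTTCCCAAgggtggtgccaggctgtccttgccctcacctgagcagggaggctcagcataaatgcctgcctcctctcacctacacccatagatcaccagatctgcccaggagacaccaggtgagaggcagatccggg
Lcn2, chr2:32387690-32387989, - strand: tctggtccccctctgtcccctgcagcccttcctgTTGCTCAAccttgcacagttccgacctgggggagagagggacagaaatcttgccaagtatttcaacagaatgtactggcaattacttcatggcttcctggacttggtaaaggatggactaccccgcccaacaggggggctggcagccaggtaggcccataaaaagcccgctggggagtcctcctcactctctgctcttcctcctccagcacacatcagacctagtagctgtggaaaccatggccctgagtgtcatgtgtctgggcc
Chil1, chr1:134181906-134182205, + strand: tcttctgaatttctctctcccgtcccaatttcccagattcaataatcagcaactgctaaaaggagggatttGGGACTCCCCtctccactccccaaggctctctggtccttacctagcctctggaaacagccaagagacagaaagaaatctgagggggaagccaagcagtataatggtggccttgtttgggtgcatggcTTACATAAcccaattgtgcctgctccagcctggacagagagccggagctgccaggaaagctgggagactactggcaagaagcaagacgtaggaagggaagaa
Steap4, chr5:7960222-7960521, + strand: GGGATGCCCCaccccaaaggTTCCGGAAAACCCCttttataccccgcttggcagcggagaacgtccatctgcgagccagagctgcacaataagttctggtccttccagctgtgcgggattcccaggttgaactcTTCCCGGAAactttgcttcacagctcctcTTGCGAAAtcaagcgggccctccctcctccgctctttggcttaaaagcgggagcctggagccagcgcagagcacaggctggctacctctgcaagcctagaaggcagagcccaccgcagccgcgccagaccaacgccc
The C/EBP letters occurred in the windows of all 8 matched genes, while 40.7% of 32851 promoter windows of the same length held them. *Saa3* had 4 such matches, between -216 and -92 from the start, *Saa1* had 2 and *Saa2* had 1. The match at -182 in *Saa1* and the match at -183 in *Saa2* had the same 8 letters. NF-kB matches were found in *Chil1* (at -179), *Ptx3* (2 overlapping matches across the start) and *Steap4* (at -250 and at -226, the latter overlapping a C/EBP match at -230), against 8.46% of all windows. The STAT letters were found only in *Steap4* among the 8 genes, at -116, against 8.30% of all windows. The AP-1 letters TGANTCA, not marked above, occurred once, in the upstream of 2 *Cp* windows, against 7.81% of all windows. These are letter matches in short windows and show no binding.

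Each sample held between 20778077 and 20888041 estimated counts. The targeted gene *Hint1* had 2272, 2336, 2364 and 2301 counts in the WT samples and 713, 748, 778 and 715 in the *Hint1*-/- samples, so that 0.321 of the WT level remained (log2 fold change -1.64 ± 0.037 SE). Which exons the remaining reads came from cannot be seen in counts per gene. Over 13535 tested genes, 383 passed an adjusted p of 0.05 and a fold change of 1.5 in edgeR's quasi-likelihood test (2.83%), with 182 higher (1.34%) and 201 lower (1.49%) in *Hint1*-/- samples. The median log2 fold change of all tested genes was 0.0003. Values per gene below are estimated counts unless given as counts per 1000000 (CPM), and fold changes are *Hint1*-/- over WT.

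Of the 10 genes, 8 passed the filter on low counts, and each of these had all 4 *Hint1*-/- values above all 4 WT values. The same held for 11.9% of all tested genes. Of the 8, 6 passed both thresholds in the higher direction (background 1.34%), 0 passed in the lower direction and all 8 passed the adjusted p alone (background 11.2%). Since the contrast chose the genes, nothing is read from these counts. *Saa1* and *Saa2* had too few reads to be tested. The median log2 fold change of the 8 genes was 1.01. Nearest to the fold limit, which is 0.585 on the log2 scale, *Ptx3* lay just inside at 0.61 and *Lbp* just outside at 0.55.

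**Figure D1:**
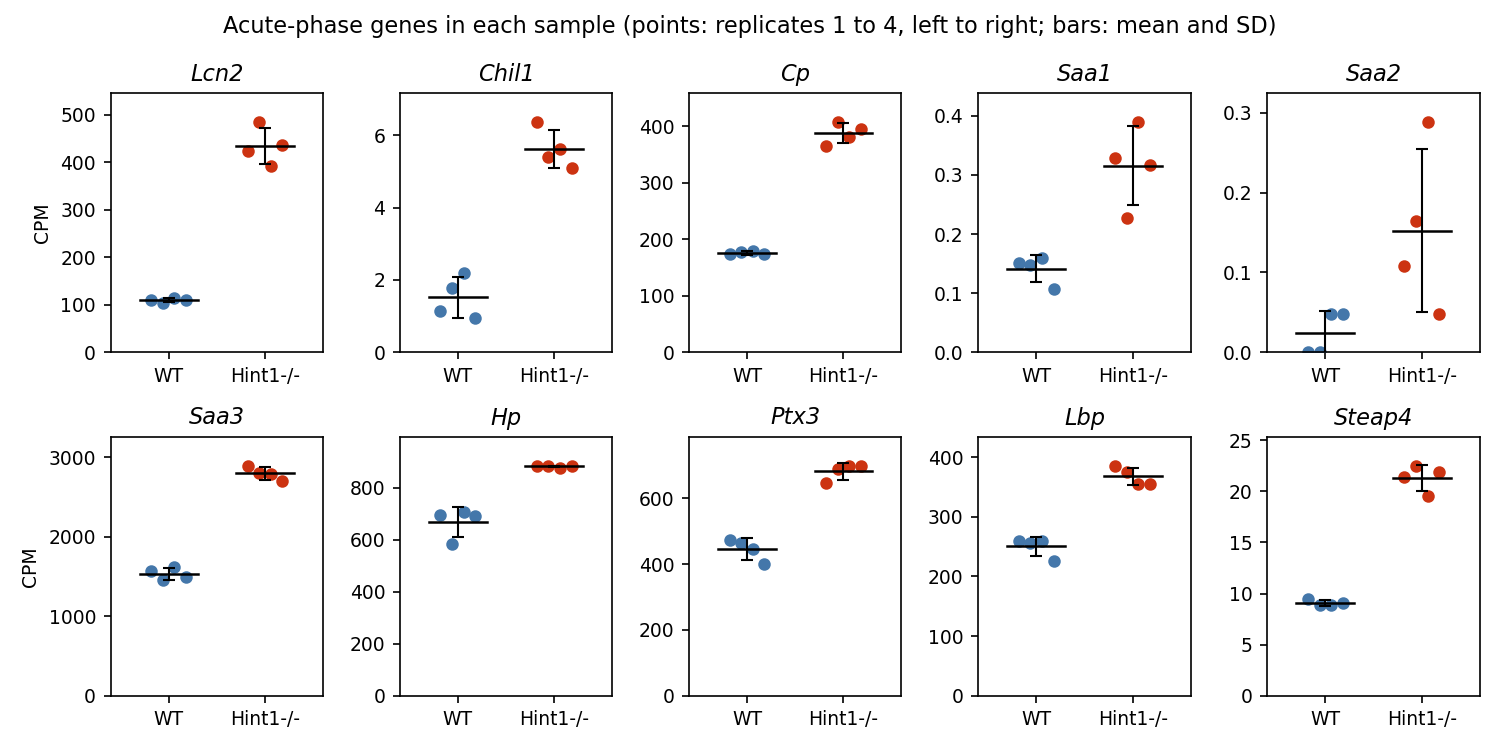
CPM of each of the 10 genes in the 4 WT and 4 Hint1-/- samples, with a separate y axis from 0 for each gene; points are samples in the order of their replicate numbers, and bars are mean and SD. The colors do not overlap in CPM, though in Saa2 the lowest Hint1-/- point is nearly level with the highest WT point. The Hint1-/- points of Hp lie on nearly 1 level while its WT points do not.

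Among the genes of iron, copper and heme handling, *Lcn2* stood out by size and *Cp* by the tightness of its WT values. *Lcn2* encodes lipocalin 2, a secreted protein that binds bacterial iron-carrying siderophores. It had 2290, 2180, 2381 and 2297 counts in the WT samples and 8807, 10029, 8168 and 9065 in the *Hint1*-/- samples. The lowest *Hint1*-/- sample was thus far above the highest WT sample, and within *Hint1*-/- replicate 2 was highest and replicate 3 lowest. The means of 109 ± 4.11 and 434 ± 38.1 CPM (SD, n = 4 each, WT first) gave a 3.97-fold difference and a log2 fold change of 1.99 ± 0.052 (SE). By level, *Lcn2* ranked 2025th of all genes in WT and 322nd in *Hint1*-/-.

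*Cp* encodes ceruloplasmin, the copper-carrying ferroxidase of plasma. The WT samples held 3627, 3709, 3743 and 3613 counts, and the *Hint1*-/- samples held 7590, 8429, 7931 and 8204. The WT values lay so close together that their coefficient of variation, 1.53%, was no larger than counting alone would give (1.65%), and replicate 2 was again the highest *Hint1*-/- sample. The means were 176 ± 2.68 and 387 ± 17.8 CPM (SD, n = 4 each), and the log2 fold change was 1.14 ± 0.036 (SE), or 2.21-fold.

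*Steap4*, a membrane metalloreductase of iron and copper, was expressed at a low level. It had 198, 186, 185 and 190 counts in WT and 445, 466, 407 and 455 in *Hint1*-/- samples. The groups were far apart relative to their spread, at 9.07 ± 0.303 and 21.4 ± 1.27 CPM (SD, n = 4 each), with a log2 fold change of 1.23 ± 0.065 (SE). Its relatives differed less. *Steap1* and *Steap2* rose by less than the fold limit (log2 fold changes of 0.22 and 0.16, adjusted p = 0.00182 and 0.00122 in edgeR's quasi-likelihood test), and *Steap3* had a log2 fold change of 0.03 (adjusted p = 0.745). *Heph*, the membrane relative of ceruloplasmin, fell by 0.20 on the log2 scale (adjusted p = 0.000719).

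*Hp* encodes haptoglobin, which captures free hemoglobin. It had 14459, 12250, 14750 and 14462 counts in the WT samples and 18307, 18296, 18250 and 18319 in the *Hint1*-/- samples. WT replicate 2 stood below the other WT samples, and the *Hint1*-/- samples were almost equal. Mean levels were 668 ± 57.0 and 881 ± 2.97 CPM (SD, n = 4 each), and the log2 fold change of 0.40 ± 0.046 (SE), the smallest of the 8, was under the fold limit. The coefficient of variation of the *Hint1*-/- samples was 0.337%, below the 0.738% of counting error, whereas that of WT was 8.52%. Over the 4609 tested genes that averaged 1000 counts or more, the median coefficient of variation was 3.44% in WT and 3.26% in *Hint1*-/-.

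The serum amyloid A genes, whose products are lipid-binding acute-phase proteins carried on HDL, were very unequal in level. *Saa3*, the form made outside the liver, had 32675, 30408, 33771 and 31119 counts in WT and 59970, 58055, 58008 and 55983 in *Hint1*-/- samples. *Saa3* alone made up 0.146% to 0.162% of a WT sample and 0.268% to 0.287% of a *Hint1*-/- sample, and *Saa3* ranked 45th of all genes by CPM in WT and 20th in *Hint1*-/-. Its levels were 1530 ± 74.4 and 2795 ± 80.3 CPM (SD, n = 4 each) with a log2 fold change of 0.87 ± 0.038 (SE), so that it added the most counts of the 10 genes. Together the 10 genes took 0.307% to 0.334% of the counts of a WT sample and 0.547% to 0.563% of those of a *Hint1*-/- sample.

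The liver forms *Saa1* and *Saa2* were barely detected. *Saa1* had 3.14, 3.09, 3.34 and 2.25 estimated counts in WT and 6.82, 4.7, 8.1 and 6.57 in *Hint1*-/- samples. *Saa2* had 0, 0, 1 and 1 in WT and 2.25, 3.4, 6 and 1 in *Hint1*-/- samples. Pooled and rounded over 4 samples, *Saa1* had 27 against 11 counts, a ratio of 2.45 (95% exact interval 1.18 to 5.48), and *Saa2* had 12 against 2, a ratio of 5.99 (1.33 to 55.1), where the intervals cover counting error only. The lowest *Saa2* count in *Hint1*-/- equaled the highest in WT.

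Reads could be shared within this cluster, though fractional counts do not say which genes shared them. The principal transcripts of *Saa1* and *Saa2* were 94.4% identical over their alignment, against 69.9% for *Saa1* and *Saa3* and 70.2% for *Saa2* and *Saa3*. Of the 50-base windows of the *Saa1* protein-coding transcripts, the length of a read, 13.2% (74 of 560) also occurred in *Saa2* and 1.61% (9) in *Saa3*. Counts of *Saa1* and *Saa2* are therefore uncertain as a split between both genes. The *Saa1* counts are also uncertain against *Saa3*, as reads of the far more abundant *Saa3* could fall in the 9 shared windows. How many did was not tested. Of the *Saa3* windows 0.352% (9 of 2556) occurred in *Saa1* and 0 in *Saa2*, and *Saa3* had at least 4114 times the counts of *Saa1* and *Saa2* together in every sample.

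*Ptx3*, *Lbp* and *Chil1* encode secreted proteins that act at microbial or matrix surfaces. *Ptx3* (pentraxin 3, a pattern recognition protein that binds complement and matrix) had 9904, 9782, 9347 and 8360 counts in WT and 13393, 14248, 14539 and 14534 in *Hint1*-/- samples. The groups were separate, and WT replicate 4 was lowest. With 447 ± 33.2 and 683 ± 25.5 CPM (SD, n = 4 each) its log2 fold change was 0.61 ± 0.045 (SE), and without WT replicate 4 it was 0.56, under the fold limit, so that 5 in place of 6 of the genes passed both thresholds.

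*Lbp*, which hands lipopolysaccharide to CD14 and TLR4, had 5404, 5372, 5423 and 4731 counts in WT and 7995, 7746, 7395 and 7374 in *Hint1*-/- samples. WT replicate 4 was again the lowest. Mean levels were 250 ± 15.8 and 367 ± 14.9 CPM (SD, n = 4 each), with a log2 fold change of 0.55 ± 0.043 (SE).

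*Chil1* encodes a secreted chitinase-like protein without chitinase activity, the mouse counterpart of YKL-40. It had only 24, 37, 46 and 20 counts in WT and 132, 112, 117 and 106 in *Hint1*-/- samples. The groups were far apart, but the WT counts varied more than those of the other 7 tested members, with a coefficient of variation of 37.5% (17.8% from counting alone) against 9.54% in *Hint1*-/- samples (9.24%). Its levels were 1.52 ± 0.569 and 5.62 ± 0.537 CPM (SD, n = 4 each), 3.70-fold apart, with a log2 fold change of 1.89 ± 0.18 (SE) that ran from 1.72 to 2.12 when 1 sample was left out. *Chil3*, a relative made by macrophages, was not listed under that symbol in the samples and has no value here.

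**Figure D2:**
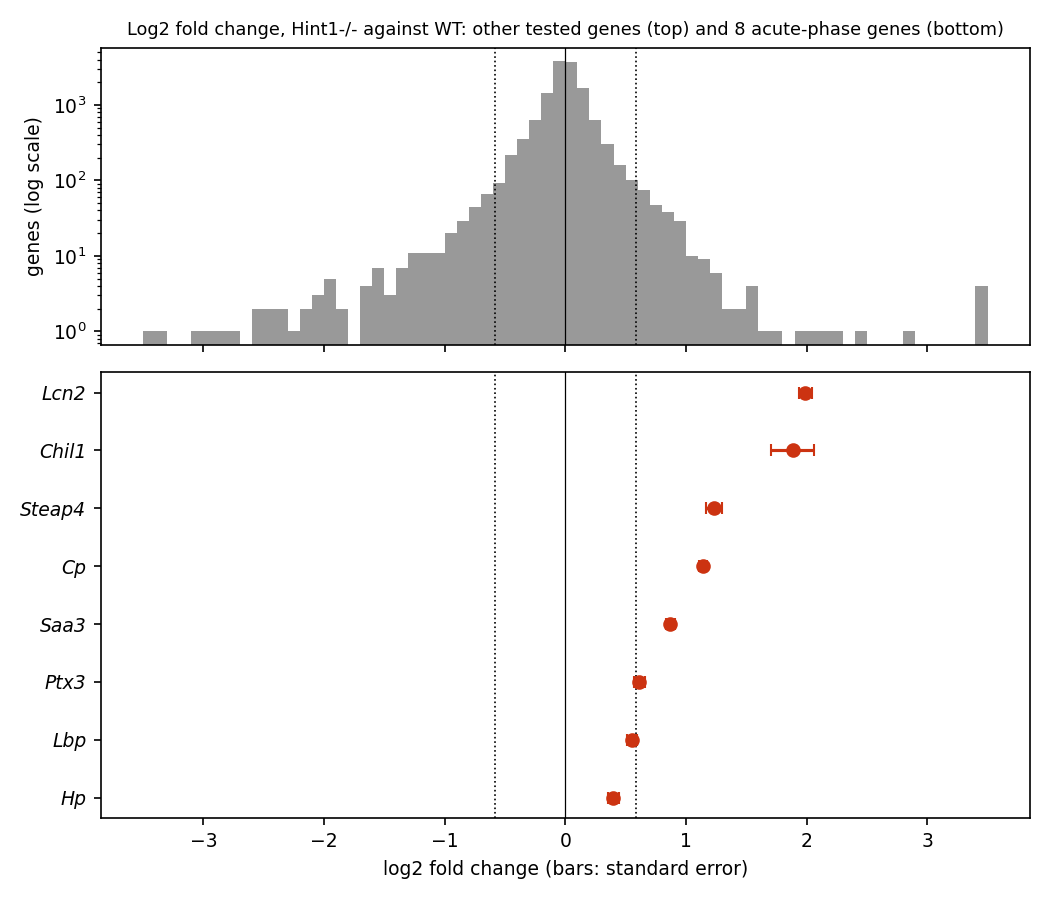
Log2 fold change of Hint1-/- over WT for all other tested genes (top, number of genes on a log scale) and for the 8 tested acute-phase genes (bottom, points with standard errors); dotted lines mark a 1.5-fold change. The 8 genes range from 0.40 for Hp to 1.99 for Lcn2, all to the right of 0, in the contrast that chose them.

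In rank among the 13535 tested genes by log2 fold change, *Lcn2* was 10th, *Chil1* 12th, *Steap4* 25th, *Cp* 35th, *Saa3* 90th, *Ptx3* 226th, *Lbp* 282nd and *Hp* 505th. Since the rise of *Lcn2*, *Cp* and *Chil1* led to the choice of the genes, no relation of level and fold change is read from these ranks. The genes with the highest CPM in WT (*Saa3*, *Hp*, *Ptx3* and *Lbp*) had the smallest fold changes of the 8. They ranked lower than *Steap4* and *Chil1*, which had the lowest CPM of the 8.

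Levels of different genes can be compared only per length, so counts were also divided by the length of all annotated exons and scaled to transcripts per 1000000 (TPM). In WT the order was *Saa3* (2028 ± 82.3 TPM), *Hp* (1438 ± 107), *Ptx3* (576 ± 45.1), *Lbp* (179 ± 11.8), *Lcn2* (144 ± 4.05), *Cp* (63.5 ± 1.37), *Steap4* (9.94 ± 0.285), *Chil1* (1.87 ± 0.705), *Saa1* (0.197 ± 0.0322) and *Saa2* (0.0327 ± 0.0377; SD, n = 4 each). No neighbors in that order overlapped in their 4 values. In *Hint1*-/- samples *Lcn2* (573 ± 49.4 TPM) stood above *Lbp* (263 ± 8.41 TPM), *Saa3* reached 3709 ± 68.0 TPM, and the values of *Saa1* and *Saa2* overlapped.

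The order of 2 neighbors depended on the length used. With all annotated exons *Saa3* was 2606 bases long, against 555 for its principal transcript, and *Lcn2* 2623 against 915. With principal transcripts, a choice made after seeing the data, WT levels were 6411 ± 260 TPM for *Saa3*, 278 ± 7.60 TPM for *Lcn2* and 231 ± 15.5 TPM for *Lbp*, so *Lcn2* stood above *Lbp* already in WT. In *Hint1*-/- samples *Lcn2* (1102 ± 95.5 TPM) then also passed *Ptx3* (836 ± 38.1 TPM).

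**Figure D3:**
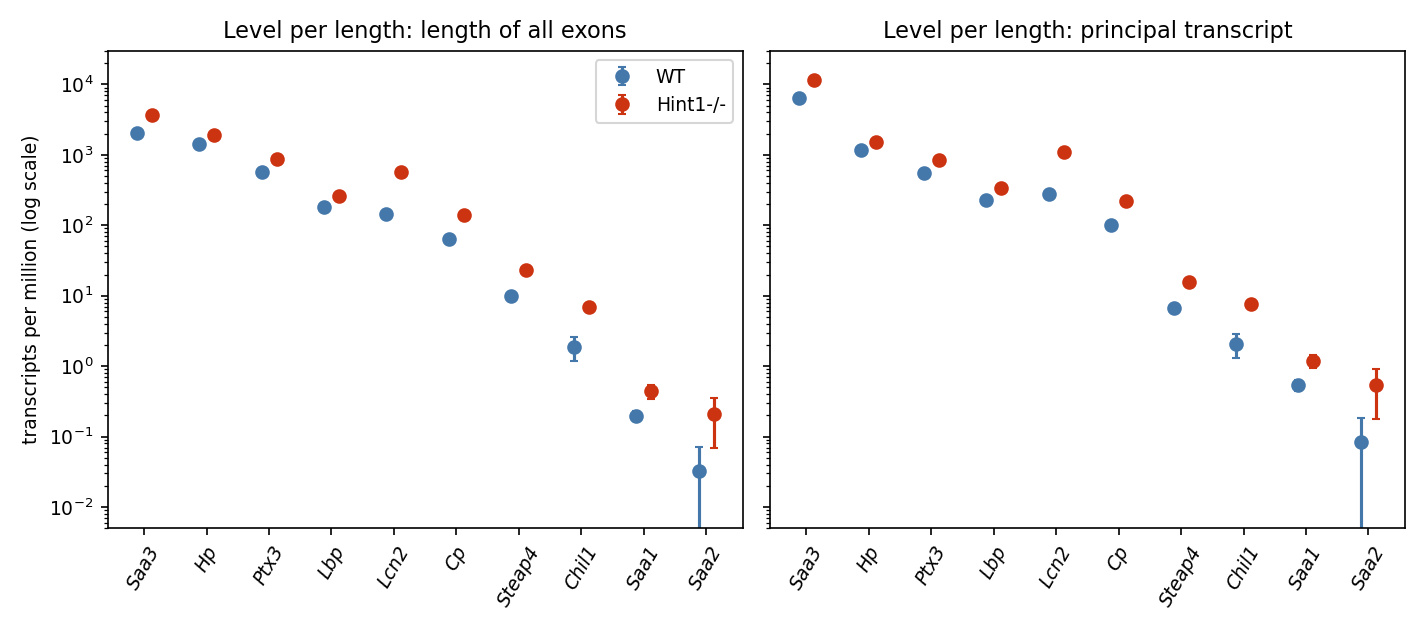
TPM (log scale) of the 10 genes in WT and Hint1-/- samples, as mean and SD of 4 samples, with the length of all exons (left) or of the principal transcript (right); the SD of Saa2 in WT runs below the axis. Saa3 is highest and Saa2 lowest in both panels, and Lcn2 moves from 144 to 573 on the left.

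On the CPM scale, WT replicate 3 was highest for *Lcn2*, *Chil1*, *Cp*, *Saa1*, *Saa3*, *Hp* and *Lbp*, 7 of the 10 members. For *Saa1* this rests on 3.34 against 3.14 counts, within counting error. The share over all genes is not given here, so nothing particular to these genes is read from the order of replicates. WT replicate 4 was lowest for *Chil1*, *Cp*, *Saa1*, *Ptx3* and *Lbp*, while WT replicate 2 was lowest for *Lcn2*, *Saa3* and *Hp*. Within *Hint1*-/-, *Lcn2*, *Cp*, *Hp* and *Steap4* had their highest CPM in replicate 2 and *Chil1*, *Saa3* and *Lbp* in replicate 1. The coefficients of variation of the 8 tested genes ran from 1.53% (*Cp*) to 37.5% (*Chil1*) in WT and from 0.337% (*Hp*) to 9.54% (*Chil1*) in *Hint1*-/-.

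The remaining genes of the pathway were described from 8 lists with 143 genes, of which 105 were tested. These lists were written with earlier results of these data known. Their counts beside the background are therefore a description, and no enrichment is read from them. In edgeR's quasi-likelihood test 11 were higher and 1 was lower past both thresholds (background 1.34% and 1.49%), and their median log2 fold change was 0.10.

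Of 26 other acute-phase genes, 10 were tested, and these moved in both directions. *C3*, the central complement component, rose, with WT counts of 23049 to 24762 against 35608 to 41550 (*Hint1*-/-) (log2 fold change 0.70 ± 0.042 SE, adjusted p = 5.42e-10). *Cfb*, factor B of the alternative complement pathway, rose by 0.64 ± 0.037 (adjusted p = 4.34e-10), and the metal-binding *Mt1* by 0.64 ± 0.060 (adjusted p = 2.92e-07). By the adjusted p alone (background 11.2% higher and 10.2% lower) 6 were higher and 4 lower, and the 4 lower genes were *Serpina3n*, *Serpina3g*, *Il1rn* and *Cd14*, with log2 fold changes from -0.35 to -0.25. The median of the 10 was 0.49. The liver genes *Crp*, *Orm1* and *Hamp* had at most 3.8, 2 and 1 counts in any sample.

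Of 6 negative acute-phase genes, which fall in the liver during inflammation, 2 were tested and both were higher. *Trf*, the iron carrier transferrin, had 121, 132, 138 and 145 counts in WT and 251, 261, 276 and 220 in *Hint1*-/- samples (log2 fold change 0.92 ± 0.086 SE, adjusted p = 2.81e-07). *Rbp4*, the retinol carrier, had 10, 20, 25 and 16 against 40, 32, 34 and 28 counts (0.92 ± 0.24 SE, adjusted p = 0.00889).

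Of 10 tested ligands of the IL-1, IL-6 and TNF families, 0 passed both thresholds, and the median log2 fold change was 0.05. By adjusted p alone 3 were higher and 2 lower (background 11.2% and 10.2%). *Il6* had 1712, 1785, 1499 and 1441 counts in WT and 1990, 2181, 2165 and 2045 in *Hint1*-/- samples. It was higher in every *Hint1*-/- sample, by 0.39 ± 0.055 on the log2 scale (SE, adjusted p = 3.52e-05). *Il33* (0.58 ± 0.10, adjusted p = 0.000491) and *Lif* (0.22 ± 0.045, adjusted p = 0.00168) were the other higher ligands. *Tnf* (-0.14 ± 0.046, adjusted p = 0.0369) and *Osm* (-0.22 ± 0.068, adjusted p = 0.0257) were lower. *Il1b* had 3, 3, 2 and 3 counts in WT and 11, 10, 8 and 5 in *Hint1*-/- samples, too few for the test.

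Of 15 receptors, 0 passed both thresholds, and 3 were higher and 1 lower by adjusted p alone (background 11.2% and 10.2%). *Il6st*, the shared signaling chain gp130, was higher by 0.22 ± 0.037 (SE, adjusted p = 0.000248). The IL-1 receptor *Il1r1* had a log2 fold change of 0.10 ± 0.039 (adjusted p = 0.0839) and the oncostatin receptor *Osmr* of 0.07 ± 0.032 (adjusted p = 0.132). *Il1rl1*, the IL-33 receptor, was the 1 receptor that was lower, at -0.57 ± 0.034 (adjusted p = 4.96e-10).

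Of 25 signal transducers and transcription factors, 0 passed both thresholds either. By adjusted p alone 8 were higher and 3 lower (background 11.2% and 10.2%). *Cebpd*, a C/EBP factor of the acute-phase response, had 3101, 3065, 3010 and 3053 counts in WT and 4205, 4144, 4525 and 4306 in *Hint1*-/- samples, which gave 0.50 ± 0.034 on the log2 scale (SE, adjusted p = 2.93e-09). *Cebpb* (0.11 ± 0.059, adjusted p = 0.189) and *Stat3* (0.06 ± 0.034, adjusted p = 0.213) did not pass. *Nfkbiz*, an NF-kB cofactor needed for *Lcn2* induction, was higher by 0.25 ± 0.037 (adjusted p = 5.05e-05), and *Socs3*, a STAT3 target and inhibitor, by 0.16 ± 0.041 (adjusted p = 0.00808).

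Of 20 other genes that IL-1 induces in stromal cells, all of them tested, 5 passed both thresholds in the higher direction and 0 in the lower (background 1.34% and 1.49%). By adjusted p alone 14 were higher and 0 lower (background 11.2% and 10.2%). *Nos2*, the inducible nitric oxide synthase, had 1037, 1094, 871 and 675 counts in WT and 2776, 3451, 2692 and 3282 in *Hint1*-/- samples (log2 fold change 1.74 ± 0.10 SE, adjusted p = 4.68e-10). The neutrophil chemokines *Cxcl5* (1.15 ± 0.047, adjusted p = 1.89e-12) and *Cxcl1* (0.76 ± 0.048, adjusted p = 9.80e-10), the granulocyte growth factor *Csf3* (0.91 ± 0.098, adjusted p = 1.57e-06) and the matrix protease *Mmp3* (0.94 ± 0.045, adjusted p = 2.16e-11) were the other 4. *Icam1* (-0.02) and *Vcam1* (-0.04), adhesion molecules of the same list, had adjusted p values of 0.83 and 0.389, and the median of the list was 0.22.

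Structural relatives and binding partners had medians near 0. Of 11 tested relatives, 0 were higher and 1, *Nptx2*, a neuronal relative of *Ptx3*, was lower past both thresholds, with 27, 25, 25 and 22 counts in WT and 8, 16, 19 and 14 in *Hint1*-/- samples (log2 fold change -0.78 ± 0.25 SE, adjusted p = 0.0289), a call that was lost under 6 of 14 alternatives. *Hephl1*, another relative of ceruloplasmin, had 0, 0, 1 and 1 counts in WT and 7, 10, 10 and 8 in *Hint1*-/- samples and did not pass the filter. Of 12 tested receptors and partners, *Il13ra2*, a decoy receptor for IL-13 that also binds Chil1, was higher with 184, 208, 180 and 130 against 298, 357, 293 and 280 counts (0.82 ± 0.11, adjusted p = 1.68e-05). The lipocalin 2 receptor *Slc22a17* (-0.18 ± 0.080, adjusted p = 0.122) and *Tlr4* (0.00 ± 0.048, adjusted p = 0.984) did not pass, and the sign of *Tlr4* turned under 6 of 15 alternatives.

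**Figure D4:**
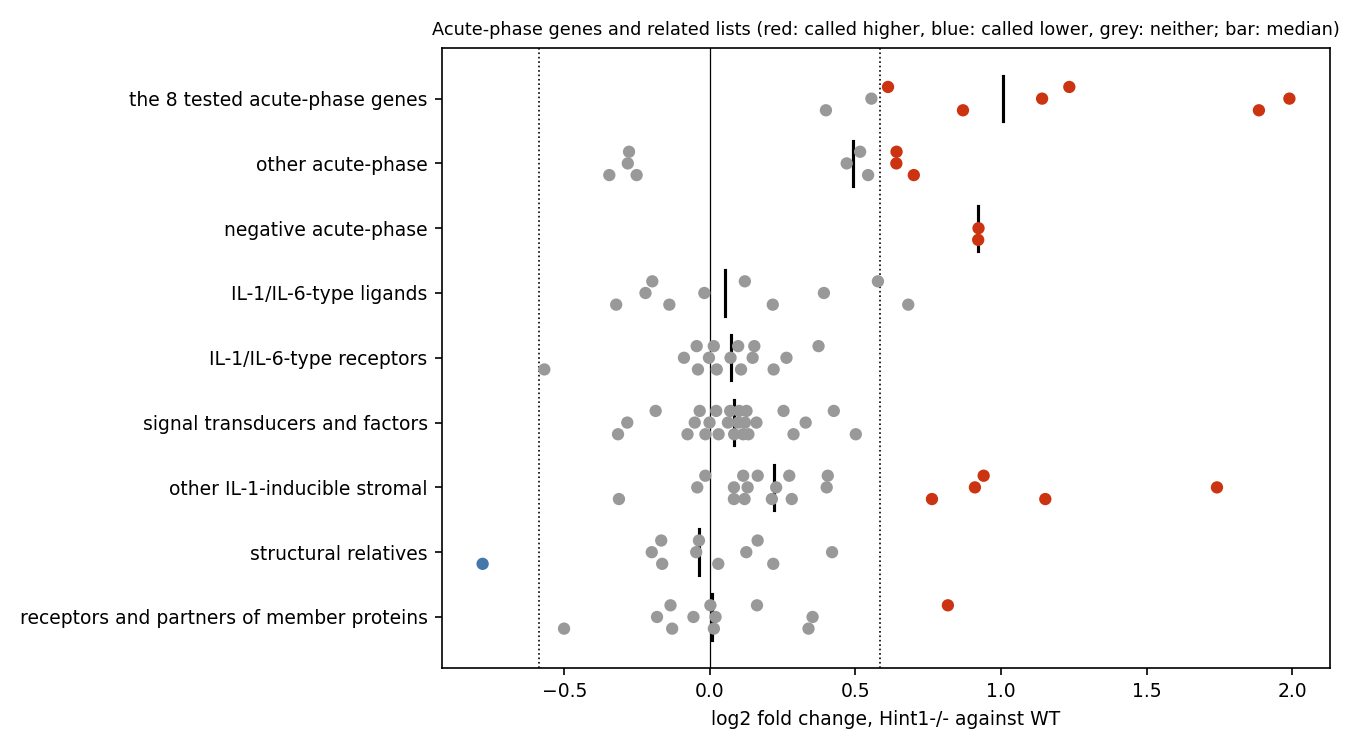
Log2 fold change of Hint1-/- over WT for each tested gene of the acute-phase genes and of the 8 related lists, with the list median as a bar and the 1.5-fold limits dotted; red genes were higher and blue lower past both thresholds. Ligands, receptors and transducers hold no colored gene, and the list of other IL-1-inducible stromal genes holds 5 red ones.

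By profile over the 8 samples, with the other members left out, the genes nearest to *Cp* were *Cxcl5*, *Apln* and *Hgf*, at a root mean square difference of 0.0652, 0.0820 and 0.104 in centered log2 CPM. Those nearest to *Lcn2* were *Slc36a2* (0.196), *Vstm2a* (0.234) and *Fgf10* (0.244). For *Chil1* they were *Fpr1* (0.335), *Nos2* (0.345) and *Slc36a2* (0.386). *Slc36a2* was thus near both *Lcn2* and *Chil1*, at only 0.261 ± 0.0435 CPM in WT against 1.10 ± 0.213 CPM (SD, n = 4 each). The prior count of 2 in log2 CPM narrows differences at few counts, which enters the distances of *Slc36a2* and *Fpr1*. The fitted log2 fold change of *Fpr1* was 2.82 ± 0.43 (SE), against 1.89 ± 0.18 for *Chil1*.

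The cells carried markers of more than 1 type, and in bulk RNA fewer cells of a type and less RNA per cell cannot be told apart. Smooth muscle markers were present, with 11640 to 17855 counts of *Acta2*, but their summed level was 1352 to 1469 CPM in WT against 1116 to 1207 CPM, and *Myh11* (-1.54), *Cnn1* (-1.12) and *Des* (-0.61) of 7 tested markers were lower past both thresholds, *Des* losing its call without WT replicate 2 or *Hint1*-/- replicate 2. Macrophage markers were also abundant, with 19497 to 27662 counts of *Lyz2* and 6109 to 8886 of *Csf1r*. Their sum was lower in *Hint1*-/- (1732 to 1851 CPM) than in WT samples (2112 to 2420 CPM), the opposite direction to the acute-phase genes. Of 9 tested macrophage markers, 6 were lower by adjusted p alone (background 10.2%). Summed fibroblast markers moved with the acute-phase genes, at 5003 to 5493 CPM in WT against 5544 to 5934 CPM, but the markers themselves were mixed, with 4 of 8 log2 fold changes above 0 and a median of 0.07. *Col1a1*, the most abundant, fell by 0.17 on the log2 scale (adjusted p = 0.0126). The largest addition to the rise of the sum came from *Dcn*, at 1111 CPM in WT against 1974 CPM in *Hint1*-/- samples. *Dcn* (0.83) and *Lum* (0.88) of the 8 were higher and *Dpt* (-0.79) lower past both thresholds, and the part of these cells in the result was not tested.

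Cartilage markers, of interest because *Chil1* is also made by chondrocytes, summed to 21.3 to 23.9 CPM in WT against 50.2 to 52.5 CPM. Nearly all of this came from *Sox9* (means of 17.9 and 24.9 CPM) and *Col2a1* (2.28 and 24.4 CPM). *Col2a1* made the largest addition, and *Sox9* rose by less than the fold limit (0.48, adjusted p = 3.58e-06 in edgeR's quasi-likelihood test). Of 4 tested, *Col2a1* (3.41) and *Comp* (0.79) were higher and *Acan* (-1.84) lower past both thresholds, while *Matn1*, *Col9a2* and *Hapln1* had at most 2 counts in any sample. Their part in the *Chil1* difference was not tested. Neutrophil markers summed to 6.47 to 7.87 CPM in WT against 6.60 to 7.60 CPM, mostly from *Csf3r* (means of 5.79 and 4.94 CPM). *Elane* and *Ly6g* had at most 2 and 3.18 counts in any sample. *S100a8*, with 4 to 22 counts, was the 1 of 3 tested that was higher (1.00, adjusted p = 0.0486), a call lost under 9 of 14 alternatives. Hepatocyte markers summed to 1.05 to 1.77 CPM in WT against 1.54 to 1.97 CPM, with *Alb* at 0 to 3 counts. Adipocyte markers summed to 48.0 to 55.1 and 50.7 to 58.0 CPM, nearly all from *Fabp4*, with *Adipoq* at 0 to 4 counts. Endothelial markers summed to 5.57 to 8.12 and 5.24 to 7.68 CPM, and none of 5 tested was called.

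**Figure D5:**
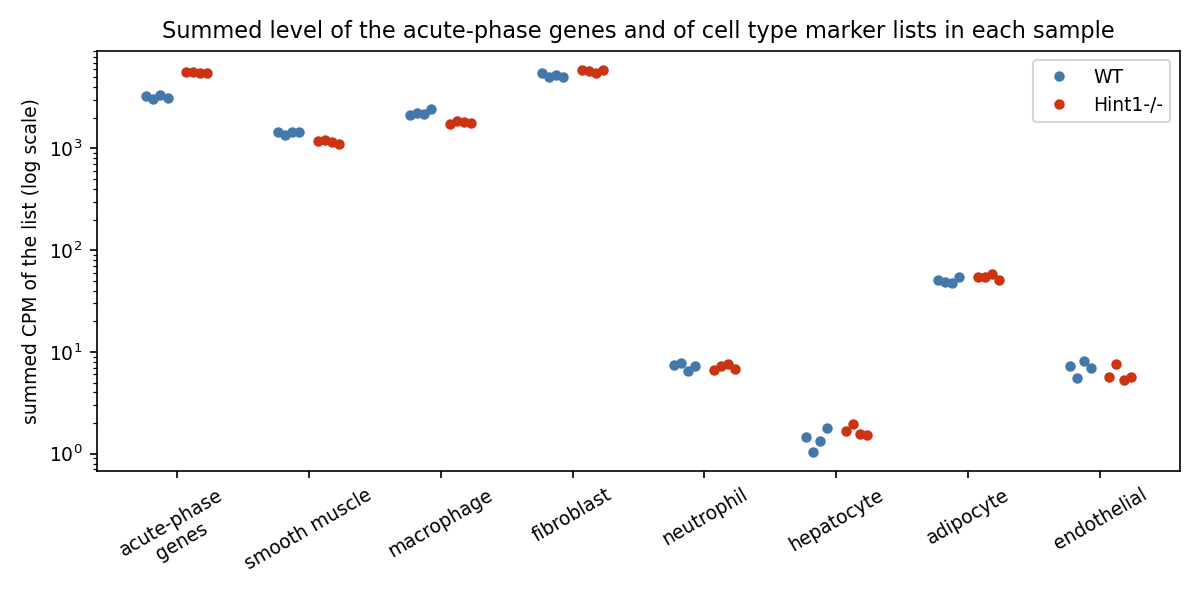
Summed CPM (log scale) of the 10 acute-phase genes and of 7 cell type marker lists in each sample. The acute-phase sum is 3045 to 3328 in WT against 5490 to 5671, and the smooth muscle and macrophage sums are lower in Hint1-/- samples.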

How the data were processed

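RNA-Seq was analysed in 4 WT and 4 *Hint1*-/- samples, grouped by the genotype in their labels. Poly(A) libraries were sequenced as 50-base reads on a BGISEQ-500. The authors deposited estimated counts per gene symbol, with decimals and no normalization. The methods name HISAT2 and mm10, while the submitters' processing notes name Bowtie2, RSEM 1.3.1 and DESeq2 1.4.5 without their roles. Estimated counts were rounded, filtered with filterByExpr (13535 of 18533 genes kept), normalized by TMM (factors 0.993 to 1.01) and compared between genotypes, with no further term, by glmQLFit and glmQLFTest (edgeR 4.0.16, R 4.3.3, limma 3.58.1), two-sided, with Benjamini-Hochberg adjustment over all tested genes. A gene was called at an adjusted p under 0.05 and a fold change over 1.5. CPM used TMM library sizes, and log2 CPM added a prior count of 2. These steps were checked on simulated counts.

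The 10 genes and all lists were chosen with earlier results of these data known. Named were the 10 genes, list genes past both thresholds, 16 pathway genes whatever their values, 3 profile neighbors each of *Lcn2*, *Chil1* and *Cp*, *Hint1*, and defining markers. Relatives and further list genes (*Steap1*, *Steap2*, *Il33*, *Lif*, *Osm*, *Il1rl1*, *Icam1*, *Vcam1*, *Hephl1*, *Col1a1*, *Smtn*, *Tagln*, *Sox9*, the lower and barely detected acute-phase genes, and abundant markers) were named after their values were seen. Lengths and transcript identities came from GENCODE M21 (GRCm38), with 17709 of 18533 symbols matched. Transcript identity stands in for the planned protein identity of the serum amyloid A genes. Within a genotype the replicates differed by more than counting noise (chi-square per gene 2.10 to 5.47), so each was counted once. Depth was nearly equal across samples, reads carried no stated molecular identifiers, and counting intervals cover counting error only. Alternatives were 2 other scalings, 2 other filters, DESeq2 1.42.0, limma-voom, a replicate block, no fold limit, other prior counts, other gene lengths and leaving out each sample.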

Additional observations from a re-analysis of the deposited data

Results flagged for a closer look

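Of 102 gene and genotype groups of 4 samples examined, 6 had a sample whose gap to the nearest other sample, as a share of the range, was above the 95% limit of Dixon's test. Chance marks about 1 in 20 groups, or 5.1 of 102. For *Hp* the share was 0.907, with 12250 counts in WT replicate 2 and 14459 to 14750 in the others. For *Lbp* it was 0.905, with 4731 counts in WT replicate 4 and 5372 to 5423 in the others. *Mmp3* had 0.909, with 33510 counts in WT replicate 2 against 37329 to 37713. *Il6st* had 0.914, with WT replicate 2 high at 21505 counts against 20138 to 20198. *Steap3* had 0.905, with WT replicate 3 high at 529 counts against 485 to 486. *Comp* had 0.85, with 15 counts in WT replicate 3 against 24 to 26. All 6 were in WT, and in 3 of them replicate 2 stood apart. With 1 sample left out in turn, the log2 fold change ran from 0.34 to 0.43 for *Hp* and from 0.51 to 0.57 for *Lbp*.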

How the results depend on the processing

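The log2 fold changes of the 8 tested members kept their sign under every alternative run, and only *Ptx3* changed sides of a threshold (0.56 without WT replicate 4). Members called higher numbered 6 under each alternative except 8 without the fold limit and 5 to 6 with a sample left out. Without filtering, *Saa1* (1.27 ± 0.50 SE) and *Saa2* (2.33 ± 0.93 SE) entered the fit and were not called. Over all genes, 383 calls became 2907 (1522 higher, 1385 lower) without the fold limit, 310 with at least 10 counts in every sample, 442 without the filter, 338 with DESeq2 and 350 to 390 with a sample left out. The 1 pathway gene called lower became 0 with at least 10 counts in every sample, where *Nptx2* was no longer tested, 0 with DESeq2, and 0 to 2 with a sample left out. *Tlr4*, near 0, turned to -0.0088 with upper-quartile scaling, -0.0011 with at least 10 counts, and negative values without WT replicates 1 or 3 or *Hint1*-/- replicates 2 or 4, in a range of -0.024 to 0.042 with a sample left out. The cause was not tested. In place of 0, 1 ligand was called higher under 6 alternatives, 1 structural relative higher without the filter and with DESeq2, and 1 receptor lower without *Hint1*-/- replicate 3. Of the other results, calls were lost in 18 cases (*S100a8* 9, *Nptx2* 6, *Des* 2, *Ptx3* 1).

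Samples with the same replicate number did not deviate together (correlations of -0.045, 0.081, 0.0088 and 0.023), and not every sample was nearest to its own number. A replicate block gave 382 calls (183 higher, 199 lower) and 6 members higher. At 0 to 3.34 counts per WT sample, *Saa1* and *Saa2* are limited by depth.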

Other observations

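Among the genes nearest in profile to *Lcn2*, *Chil1* or *Cp*, *Fgf10*, a mesenchymal growth factor, had a log2 fold change of 2.41 ± 0.086 (SE). *Hgf*, the hepatocyte growth factor, was 21.6 ± 0.745 CPM in WT against 42.1 ± 1.13 CPM (SD, n = 4 each; 0.96 ± 0.045 SE), and *Apln*, a vascular peptide hormone, 42.6 ± 2.77 and 89.7 ± 6.40 CPM (1.07 ± 0.052 SE). *Fpr1*, a formyl peptide receptor of phagocytes, was at 0.0837 ± 0.0458 and 0.626 ± 0.131 CPM, and *Vstm2a* at 1.02 ± 0.0440 and 3.90 ± 1.10 CPM. These genes were picked for likeness to a genotype pattern, and their fold changes are no separate support for it.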
